A study of Caenorhabditis elegans with 2 samples.

Results

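Binding of the transcription factor BLMP-1 was examined at 7 genes of the larval molting cycle: nhr-23, nhr-25, nhr-85, grh-1, myrf-1, myrf-2 and bed-3. They were taken by name out of 19973 nuclear protein-coding genes, and all 7 were found in the annotation. Whole Caenorhabditis elegans hermaphrodites at the L2 larval stage had been analysed by ChIP-seq (sequencing of immunoprecipitated chromatin), as 2 biological replicates numbered 2 and 3. All animals were of strain OP109, with the mutation unc-119(ed3) III and the transgene wgIs109, which expresses BLMP-1 fused at its C terminus to GFP and FLAG. The labels name no mutation of the endogenous blmp-1 gene. There was no other genotype, stage or treatment, and whole animals were used, so the cells in which a site was bound cannot be told. For each gene, every peak summit between 10 kb upstream of the gene and its end was described. The lists read, all on the ce11 build, were a thresholded list that rests on both replicates, a relaxed list of the pooled replicates, and a relaxed list of each replicate. Relaxed lists hold background together with peaks.

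A nematode larva replaces its cuticle in each molt, and the epidermis prepares for this with waves of gene expression that recur in every larval stage. NHR-23, a relative of the ROR receptors, is required for molting and for the expression of cuticle genes. NHR-25 is the NR5A (FTZ-F1) receptor of the worm and acts in the epidermis and in molting. NHR-85 is related to the Rev-Erb receptors and acts with NHR-23 in developmental timing. GRH-1 is the worm Grainyhead factor, a class of protein that controls cuticle and epidermal barrier genes in insects and mammals. MYRF-1 and MYRF-2 are membrane-bound factors whose N-terminal part is released to enter the nucleus, and they drive larval developmental progression. BED-3 is a BED-type zinc finger protein needed for molting. BLMP-1, the worm homologue of PRDM1, is itself an epidermal factor whose loss disturbs this periodic expression.

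The 7 genes differed in how many sites they had and how strong these were. In the thresholded list nhr-25 had 5 summits, nhr-85 and grh-1 had 4 each, nhr-23 and myrf-1 had 3 each, myrf-2 had 1 and bed-3 had none. The strongest site of the group was far upstream of grh-1, with a signal of 599, and it ranked 3 among the 3031 nuclear thresholded peaks. The strongest site of nhr-25, with a signal of 258, ranked 28. Signals are the authors' own peak values, on a scale the sources do not state, and are compared within a list. The nuclear thresholded signals ran from 27.1 to 858, with a median of 44.3.

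A thresholded summit was thus found at 6 of the 7 genes. Over all 19973 genes, 27.2% had a thresholded summit between 10 kb upstream and the gene end. The members' windows were longer than most, from 15444 to 23438 bp. Among the 2797 genes with a window of at least 15444 bp the share was 36.9%. At 5 of the 7 genes there were 3 or more summits, against 3.12% of all genes and 6.58% of those with the longer windows. That number of summits was picked after the values were seen. The members' windows held 20 summits in 123341 bp, or 1.62 per 10 kb, against 0.302 per 10 kb over the nuclear genome. The windows lie at genes and the genome includes all other sequence, and the members were chosen with earlier results of these data known, so no test was made.

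**Figure D1:**
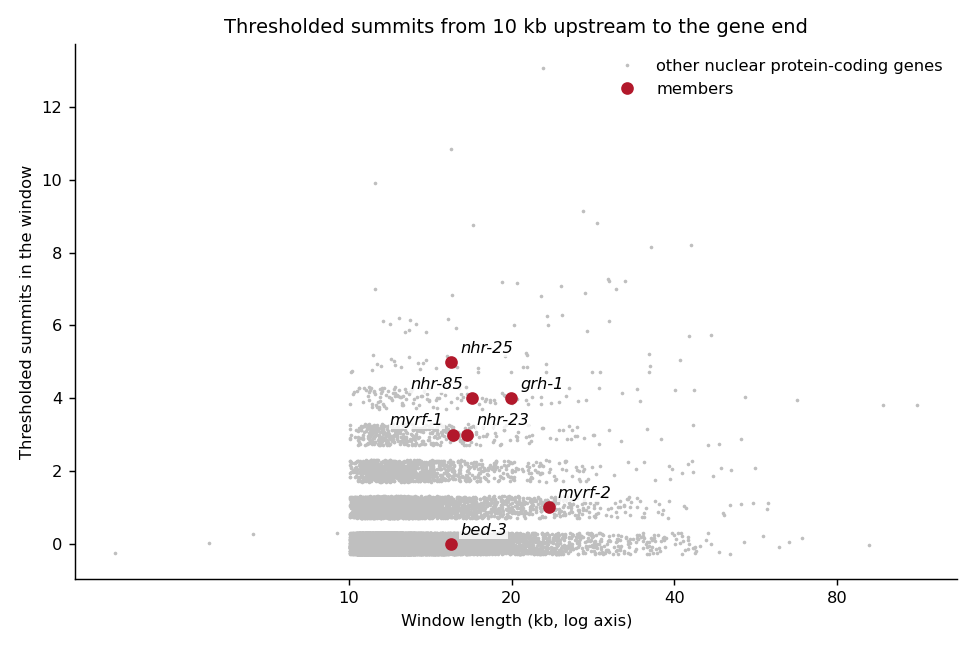
Number of thresholded summits from 10 kb upstream to the gene end (vertical axis) against the length of that window in kb (horizontal, log axis) for nuclear protein-coding genes. Grey points, spread vertically for display, are other genes, and red points are the 7 members, which run from 0 summits at bed-3 to 5 at nhr-25.

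By position, 7 of the 20 thresholded summits lay in a promoter window of their gene, which reached 1000 bp upstream and 200 bp downstream from each annotated transcript start. These 7 belonged to 5 genes, nhr-23, nhr-25, nhr-85, myrf-1 and myrf-2, and 8.84% of all genes had such a summit. Of the 7 windows, 4 were those of the gene's first start, and 3 belonged only to an internal start. The 3 at internal starts also lay within an intron of a longer transcript. Another 4 summits were in introns outside promoter windows, at nhr-23, nhr-25 and myrf-1. The other 9 lay farther upstream, and no thresholded summit was in a coding exon or an untranslated region of a member. Summits inside the gene were found at 4 members, nhr-23, nhr-25, nhr-85 and myrf-1, against 3.52% of all genes. Neither this share nor the 8.84% was matched for gene length or for number of starts, of which myrf-2 had 10. The median distance to the nearest own transcript start was 985.5 bp, and 8 of the 20 lay beyond 2000 bp.

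**Figure D2:**
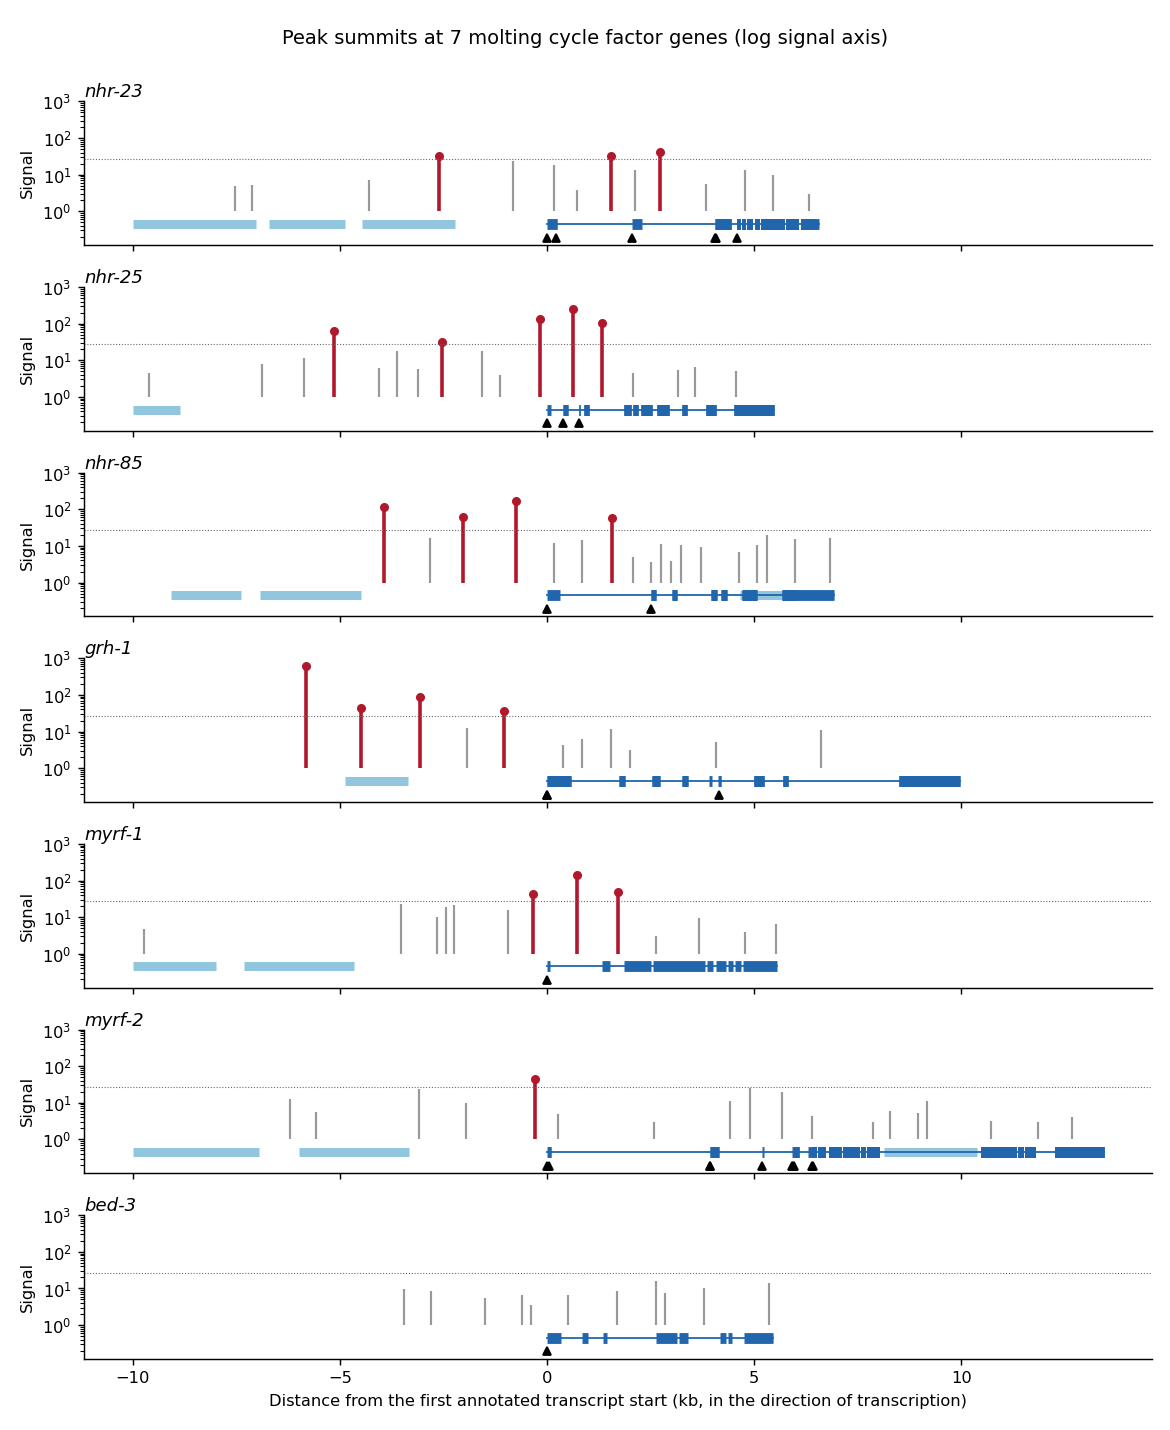
Maps of the 7 windows in the direction of transcription, with distance from the first annotated transcript start in kb (horizontal) and peak signal on a log axis (vertical). Red stems are thresholded summits, grey stems are other pooled relaxed summits, the dotted line is the lowest thresholded signal of 27.1, dark boxes are exons of all transcripts together, light bars are other protein-coding genes and triangles are transcript starts. At grh-1 the 4 red stems are upstream of the gene, at nhr-25 and myrf-1 the tallest lie within it, and bed-3 has none.

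The nuclear receptor gene nhr-25 (WBGene00003623, chromosome X, 13008493 to 13013964, plus strand) had the most summits of the group, with the 3 strongest clustered at its 5' end. It has 3 transcripts with separate starts, F11C1.6a.2 the farthest upstream, F11C1.6a.1 and F11C1.6b.1. The strongest summit, at 13009107, lay 159 bp upstream of the start of F11C1.6b.1, inside a 257 bp intron that is intron 1 of F11C1.6a.1 and intron 2 of F11C1.6a.2. Its signal was 258 in the pooled list, 110 in replicate 2 and 155 in replicate 3, and it ranked 33 and 26 among the nuclear peaks of the replicates. It was thus among the strongest sites in each replicate, at summits 40 bp and 8 bp from the thresholded one. The next summit, 168 bp upstream of the first start (13008325), had a signal of 130 and ranked 462 in replicate 2 and 109 in replicate 3. A further summit at 13009828 had a signal of 107 and lay in an 839 bp intron, 562 bp downstream of the start of F11C1.6b.1 and in its intron 2. Neighbouring summits of these 3 were 782 and 721 bp apart. The remaining 2 were upstream, at 5136 bp (signal 62.3) and 2533 bp (signal 31.0), in a stretch of 8850 bp with no other protein-coding gene. The summit at 2533 bp was the member site nearest above the threshold, and it ranked 3281 in replicate 2 and 2935 in replicate 3. For all 5 summits nhr-25 had the nearest protein-coding start. Genes of non-coding RNA were not used for distances, and the 3 strongest summits of nhr-25 also lay inside annotated ones. The promoter summit of myrf-1 and the thresholded summit of myrf-2 did so too.

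The sequence at the strongest summits of nhr-25 shows what lay at the centre of each peak (reference sequence of WBcel235, plus strand, 50 bp to each side of the summit). Capitals in the first mark AAGGTCA, the site that receptors of the NR5A and ROR families bind as monomers, whose centre lay 33 bp from the summit. The word was present in 2.44% of all nuclear thresholded summit windows and in 1 of the 20 of the members, and a match describes the sequence only.
nhr-25 summit at 13009107, chrX:13009057-13009157: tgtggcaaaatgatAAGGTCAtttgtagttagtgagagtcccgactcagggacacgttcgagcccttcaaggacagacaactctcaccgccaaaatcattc
nhr-25 summit at 13008325, chrX:13008275-13008375: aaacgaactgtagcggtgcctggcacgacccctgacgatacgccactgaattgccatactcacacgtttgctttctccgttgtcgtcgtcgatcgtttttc

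The myrf genes encode closely related factors, and their sites were unlike in number and strength. At myrf-1 (WBGene00004134, chromosome II, 10496987 to 10502541, minus strand), which has 1 annotated transcript, the strongest summit was at 10501828, in intron 1 and 713 bp downstream of the start. Its signal was 141 in the pooled list (rank 135), 45.3 in replicate 2 (rank 272) and 98.2 in replicate 3 (rank 103). A summit in intron 2, 1700 bp from the start, had a signal of 47.6, and one in the promoter window, 332 bp upstream, a signal of 44.3. Replicate ranks of these weaker sites were close, 1213 and 1392 for the intron 2 site and 1648 and 1600 for the promoter site. All 3 summits of myrf-1 were nearest to its own start, with spacings of 1045 and 987 bp.

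The only thresholded summit of myrf-2 (WBGene00008999, chromosome X, 10180940 to 10194377, minus strand) lay at 10194667, 290 bp upstream of its first start. The gene has 11 transcripts with 10 separate starts, and the same summit was 335 bp upstream of the start of F21A10.2c.1, which lies 45 bp inside the gene. The starts farther inside had no thresholded summit in their promoter windows. The signal was 44.7 in the pooled list, close to the list's median, 11.5 in replicate 2 (rank 2987) and 28.8 in replicate 3 (rank 1374). In replicate 2 the strongest summit of the myrf-2 window was a different one, 3069 bp upstream of the first start, with a signal of 13.6. It lay in the promoter window of the neighbouring gene nucb-1, whose start was 260 bp away.

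Sequences at those summits of the myrf genes that held one of the words searched are given on the minus strand, the strand of both genes, with the word in capitals. The myrf-1 summit in intron 2 held none of them and is not shown. In myrf-1 the capitals mark AGACGCAG, in the intron 1 window as its reverse complement. That word stood highest in an earlier scan of these summits, so its presence here is no independent result. It was in 8.05% of all summit windows and in 2 of the 20 of the members, both at myrf-1. In myrf-2 the capitals mark GAGAGAGA, with its centre 5.5 bp from the summit, a word found in 9.11% of all windows and in 2 of the members' 20.
myrf-1 intron 1 summit, chrII:10501778-10501878: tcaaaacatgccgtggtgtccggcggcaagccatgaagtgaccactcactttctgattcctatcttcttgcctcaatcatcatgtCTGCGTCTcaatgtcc
myrf-1 promoter summit, chrII:10502823-10502923: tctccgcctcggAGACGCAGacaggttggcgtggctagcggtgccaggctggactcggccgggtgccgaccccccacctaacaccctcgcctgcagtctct
myrf-2 promoter summit, chrX:10194617-10194717: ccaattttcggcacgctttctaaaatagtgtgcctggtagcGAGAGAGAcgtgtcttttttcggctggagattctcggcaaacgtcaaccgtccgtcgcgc

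The remaining receptor genes differed in how strong their sites were. At nhr-85 (WBGene00003675, chromosome I, 13055201 to 13062122, minus strand) the strongest summit was 761 bp upstream of the first start, at 13062883. It had a signal of 164 in the pooled list (rank 98), 75.4 in replicate 2 (rank 73) and 89.5 in replicate 3 (rank 129), and the 2 replicate summits were within 2 bp of it. The next, at 13066055, had a signal of 112 but lay 3933 bp upstream, in the promoter window of the neighbouring gene hpo-2, whose start was 569 bp away. Replicate 2 had 1 summit in that pooled peak, with a signal of 60.6 and rank 139. Replicate 3 had 2 summits in it, a nearer one with a signal of 25.1 (rank 1717) and one at 13065915 with a signal of 70.9 (rank 221). The peak thus held a strong summit in each replicate, and the nearest one in replicate 3 was the weaker of its pair. The other 2 summits were 2041 bp upstream (signal 61.1) and in intron 1 of the longer transcript, 924 bp upstream of the start of W05B5.3b.1 (signal 59.3). Their replicate ranks were 861 and 788 for the former and 748 and 1181 for the latter.

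At nhr-23 (WBGene00003622, chromosome I, 7214745 to 7221299, plus strand) all 3 summits were weaker than the list's median of 44.3. The gene has 6 transcripts, each with its own start. One summit, at 7216277 with a signal of 33.2, lay 507 bp upstream of the start of C01H6.5a.1 and within the 4344 bp intron 1 of C01H6.5c.1 and C01H6.5d.1. Another, at 7217462 with a signal of 41.8, was 678 bp downstream of the start of C01H6.5a.1 and in intron 1 of all 3 of those transcripts. The third, with a signal of 32.7, lay 2603 bp upstream of the gene and inside its neighbour C01H6.4. The replicates ordered these sites differently. In replicate 2 the strongest was the one inside C01H6.4 (signal 18.4, rank 1537), ahead of 12.5 (rank 2639) and 9.56 (rank 3764). In replicate 3 that site was the weakest of the 3 (signal 17.2, rank 2934), behind 28.3 (rank 1421) and 20.7 (rank 2274).

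The Grainyhead gene grh-1 (WBGene00001707, chromosome I, 1258201 to 1268155, minus strand) was the only bound member with no thresholded summit in a promoter window or inside the gene. Its 4 summits lay 1047, 3080, 4490 and 5819 bp upstream of the first start, with signals of 35.7, 85.9, 42.7 and 599. The summit of 599, at 1273974, ranked 3 in the pooled list and in each replicate, with signals of 263 in replicate 2 and 347 in replicate 3. It is the site on which the order of the members rests, and its assignment to grh-1 is by the 10 kb window only. The gene Y48G8AR.8 lies between it and grh-1, and the start of Y48G8AR.8, 2458 bp away, was the nearest of any protein-coding gene. The summit of 42.7 lay inside Y48G8AR.8, and that of 85.9 lay in its promoter window, 281 bp from its start. Only the summit 1047 bp upstream had grh-1 as the nearest start, and it lay just beyond the promoter window.

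Both summits of the members that carried the PRDM1 core were at grh-1. The core was searched as AGTGAAAG or AGCGAAAG on either strand within 50 bp of the summit. It was present at the summits 1047 bp and 5819 bp upstream, with its centre 11.5 and 18.5 bp from them, and in 7.09% of all nuclear thresholded summits. The summit of 599 also lay in an unbroken repeat of GA, 37 bases long within the window, and 2 of the 3031 windows held a GA or CT repeat of that length or longer. Whether the repeat has a part in that signal was not tested. Within 100 bp the core was also found at the nhr-23 promoter summit, giving 3 of 20, against 9.30% of all summits. The shorter word GTGAAA was within 50 bp of 3 of the 20, all at grh-1 (15.0%, against 21.8% of all summits). Within 100 bp it was at 7 of 20 (35.0%, against 33.9%). No member summit had the Grainyhead word AACNGGTT within 50 bp, where 2.84% of all summits had it. Within 100 bp 2 of 20 did, at grh-1 and myrf-2, against 5.05% of all summits. Windows of 101 bp at the members' summits had a median of 49.0% G and C (range 37.6 to 70.3), against 43.6% over all summits.

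The zinc finger gene bed-3 (WBGene00009133, chromosome IV, 9916524 to 9921967, plus strand) had no thresholded summit, although no other protein-coding gene lies within 10 kb upstream of it. The pooled relaxed list held 11 summits there, with signals from 3.54 to 15.7, all under the lowest thresholded signal of 27.1. The strongest, in a coding exon 2626 bp downstream of the start, had a signal of 15.7 in the pooled list, 5.29 in replicate 2 and 8.33 in replicate 3. A summit of 14.1 lay in the untranslated region at the 3' end, 5364 bp from the start. Only these 2 were matched within 100 bp in each replicate. The relaxed list of replicate 2 held 5 summits in this window and that of replicate 3 held 11.

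**Figure D3:**
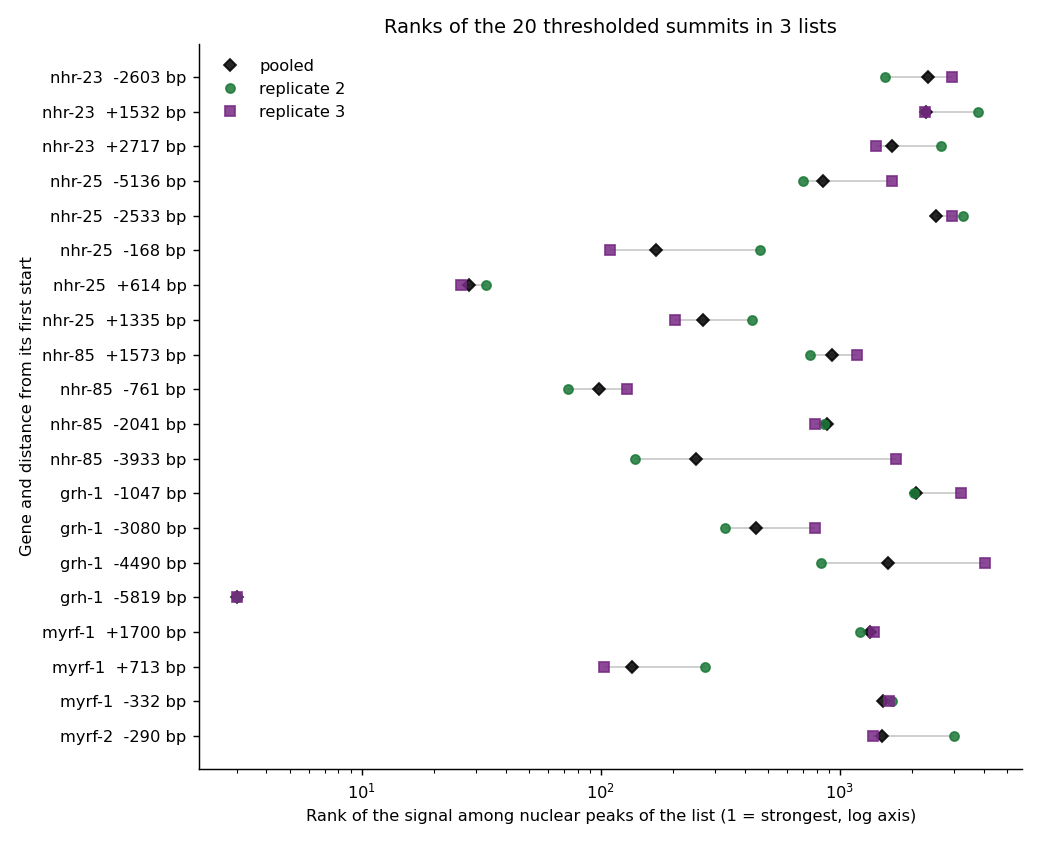
Rank of each of the 20 thresholded summits among the nuclear peaks of the pooled list (diamonds), replicate 2 (circles) and replicate 3 (squares), on a log axis where 1 is the strongest. Rows give the gene and the distance in bp from its first start. Replicate ranks are those of the nearest summit. The grh-1 summit 5819 bp upstream ranks 3 in each list. At the nhr-85 summit 3933 bp upstream the point at 1717 is the weaker of 2 replicate 3 summits in that peak, and the other, not drawn, ranks 221.

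The order of the members by their strongest summit was largely shared between the replicates. In the pooled list it ran grh-1 (599), nhr-25 (258), nhr-85 (164), myrf-1 (141), myrf-2 (44.7), nhr-23 (41.8) and bed-3 (15.7). In replicate 2 it ran grh-1 (263), nhr-25 (110), nhr-85 (75.4), myrf-1 (45.3), nhr-23 (18.4), myrf-2 (13.6) and bed-3 (6.06). In replicate 3 it ran grh-1 (347), nhr-25 (155), myrf-1 (98.2), nhr-85 (89.5), myrf-2 (28.8), nhr-23 (28.3) and bed-3 (10.6). The places of grh-1, nhr-25 and bed-3 were thus held in both replicates. That of grh-1 rests on the summit of 599, which lies past Y48G8AR.8. The only thresholded summit with grh-1 as the nearest start had 35.7, under the 41.8 of nhr-23. The places of nhr-85 and myrf-1, and those of myrf-2 and nhr-23, changed between the replicates and were not separated. In replicate 2 the strongest summits of nhr-23 and myrf-2 lay at neighbouring genes, inside C01H6.4 and in the promoter window of nucb-1. The strongest summit of bed-3 was a different one in each list. It lay in a coding exon in the pooled list, an untranslated region in replicate 2 and an intron in replicate 3. All 20 thresholded summits had a relaxed summit within 100 bp in both replicates, as did 92.6% of all nuclear thresholded summits. Since the relaxed lists were the source of the thresholded one, this share is no separate evidence. The median offset was 18 bp in replicate 2 and 8 bp in replicate 3, with the widest at 67 and 89 bp. In each replicate 18 of the 20 were among its 3031 strongest nuclear peaks.

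Beyond the thresholded list, the pooled relaxed list held 102 summits in the 7 windows, and 82 of them were over 100 bp from a thresholded summit. Of these 82, 22 had a summit within 100 bp in both replicates, 11 in replicate 2 only, 34 in replicate 3 only and 15 in neither. Every member had at least 1 of the 22, from 1 at grh-1 to 5 at myrf-2, and 34.6% of all genes had such a summit in their window. That share was not matched for window length. Over all nuclear relaxed summits away from thresholded ones, 14.6% were found in both replicates. The relaxed lists of the single replicates held 77 summits in the 7 windows in replicate 2 and 94 in replicate 3. Of the 77, 40 lay within 100 bp of a summit of replicate 3 (51.9%, against 34.5% over that list's nuclear summits). Of the 94, 40 lay within 100 bp of one of replicate 2 (42.6%, against 26.8%). Whether these differences go beyond the strength of the peaks was not tested.

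At myrf-2 the pooled relaxed list held 18 summits, 5 in promoter windows, 6 in introns, 4 upstream, 2 in coding exons and 1 in an untranslated region. The 5 under the threshold that both replicates held were in promoter windows of internal starts or upstream. The highest signal of any member summit under the threshold was 25.4, at a summit 273 bp upstream of the start of F21A10.2a.6, with 9.75 in replicate 2 and 9.83 in replicate 3. A summit of 19.7 was 245 bp upstream of the start of F21A10.2a.2. One of 24.1 lay 3100 bp upstream of the first start, in the promoter window of the neighbour nucb-1. Of the 5 pooled relaxed summits in promoter windows of myrf-2, 4 belonged to internal starts only. At myrf-1 a summit 3530 bp upstream had a signal of 22.9 and one 2446 bp upstream 18.7, each found in both replicates, as was one of 15.8 in its promoter window, 943 bp upstream.

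At the receptor genes the summits under the threshold that both replicates held numbered 4 at nhr-23 and 3 each at nhr-25 and nhr-85. The strongest at nhr-23 had a signal of 18.5 and lay 55 bp upstream of the start of C01H6.5d.1, while a stronger one of 23.1, 818 bp upstream of the first start, was found in replicate 3 only. The 3 of nhr-25 were 1582, 3621 and 5875 bp upstream of the first start, with signals of 17.5, 18 and 11.9. The 3 of nhr-85 lay at the other end of the gene, 2 in the untranslated region (16.2 and 15.4) and 1 in a coding exon (10.8), where the gene npr-14 overlaps nhr-85. The only one of grh-1, with a signal of 11.9, was in intron 1, 1547 bp from the first start. It lay inside grh-1, where the thresholded list had no summit.

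**Figure D4:**
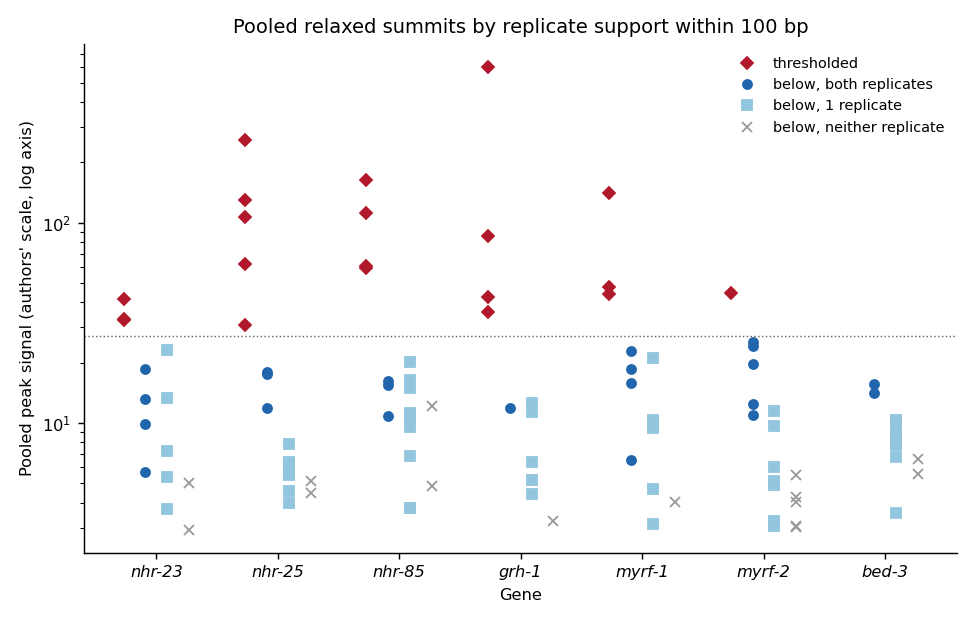
Signals of all 102 pooled relaxed summits of the 7 genes on a log axis, by gene. Diamonds are thresholded summits, circles are summits under the threshold that had a match within 100 bp in each replicate, squares in 1 replicate and crosses in neither. The dotted line is the lowest thresholded signal of 27.1, and bed-3 has no point above it.

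By place, the 102 pooled relaxed summits comprised 22 in promoter windows, 28 in introns, 34 farther upstream, 11 in coding exons and 7 in untranslated regions. The 20 thresholded summits, which are part of the 102, included none of the 18 in coding exons and untranslated regions. Of the 28 intron summits 11 were in intron 1 and 17 in later introns. The relaxed list of replicate 2 had 18, 19, 25, 9 and 6 summits in the same 5 places, and that of replicate 3 had 20, 25, 35, 10 and 4. Internal starts alone accounted for many of the promoter-window summits, with 12 of 22 at internal starts only in the pooled list, 11 of 18 in replicate 2 and 12 of 20 in replicate 3.

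Other gene lists, some of them of molting cycle genes, were counted in the same window. They were fixed with earlier results known, and they overlap in some genes with nhr- names. Over all genes, 27.2% had a thresholded summit in this window and 8.84% had one in a promoter window. Of 13 oscillator partners and timers 11 had a thresholded summit (84.6%), and 8 had one in a promoter window. These were led by blmp-1 itself (11 summits, strongest 721), the casein kinase gene kin-20 (7, strongest 437) and the heterochronic gene lin-14 (6, strongest 110). Of 35 molting effectors found in the annotation 23 had a summit (65.7%) and 5 had one in a promoter window. The strongest effector sites were at the astacin protease gene nas-7 (343), the collagen gene bli-1 (130) and the cuticle gene noah-2 (122). None of these named effectors had a summit in a promoter window. Of 11 epidermal and seam fate factors 3 had a summit (27.3%), lin-39 (76.9), rnt-1 (52.1) and lin-22 (30.9). Only 1 of the 11 had one in a promoter window (9.09%). Of 266 other nuclear hormone receptor genes, taken by a name that starts with nhr-, 73 had a summit (27.4%). A promoter window held one at 33 of them (12.4%). The shares of 27.3% and 27.4% were near that of all genes. No list share was matched for window length. Median windows were 16343 bp for the oscillator partners and timers and 14492 bp for the molting effectors. They were 13580 bp for the fate factors and 12293 bp for the other receptors, against 12026 bp over all genes. Among the 266 the strongest sites were at nhr-91 (223), nhr-3 (168) and nhr-50 (168). At 258, nhr-25 had a stronger site than any of these 266 genes, while its 5 summits equalled the most found at any of them. The genes with the most thresholded summits in this window were egl-27 (13), blmp-1 (11), cup-2 (10), bcl-11 (9) and din-1 (9), each with more than any member. The windows of blmp-1 and cup-2 share their strongest summit of 721.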

How the data were processed

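Chromatin immunoprecipitation followed by sequencing was done in 2 biological replicates of 1 group. Per the deposited file descriptions, the authors made relaxed peak lists from each replicate's alignments and from the alignments of both, in each case with a further file, and made a thresholded list from these 3. A control experiment named in the labels is not analysed here, and the antibody field names BLMP-1. Not given in the sources used here are the aligner, the peak caller, the versions and the threshold.

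Each deposited list gives a peak's interval, summit and signal, as the authors' caller made them, and a −log10 q value per the narrowPeak layout, which was at its ceiling in every thresholded peak and was not used. The summit offset is another column of the deposited lists. The ce11 lists held 3060 thresholded, 30000 pooled, 19553 replicate 2 and 25142 replicate 3 peaks. The 3060 are the strongest of the pooled list. Mitochondrial peaks (29 of the 3060) were not used, except that the alternatives which cut a list to its strongest peaks counted them in the cut. For 3 peaks whose summit fell past the interval, its final base was taken. No list holds read counts, so depth is unknown.

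ce11 is the assembly WBcel235. Genes came from Ensembl release 115 and sequence from RefSeq, and coordinates are 1-based. Where a summit had several places, promoter windows took precedence, followed by coding exons, untranslated regions, other exons, introns and upstream sequence. No test was made: with 1 group there is nothing to compare between samples. Counts are given beside the share of all genes or summits. The members, lists and words were chosen with earlier results of these data known. Named genes were the members, the genes nearest to or sharing their summits, up to 3 genes of each list with the strongest summit, and the 5 genes with the most summits. The list member bus-8 found no gene of that name. Alternatives covered the peak list, single replicates, window lengths, assignment, overlap rules and words. Functions were checked on made-up genes with known answers. Python 3.11.15, NumPy 2.4.6, pandas 2.3.3 and matplotlib 3.10.9 were used.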

Additional observations from a re-analysis of the deposited data

How the results depend on the processing

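Of 33 values recomputed under alternatives, 27 stayed within 1.5 times the reported count. The 27 include counts of GTGAAA (3) and AGACGCAG (2), set against the 2 of the PRDM1 core. AGACGCAG was not planned and is a different word, so its equal count does not bear on the core. With the stronger 1530 thresholded peaks, mitochondrial ones counted, the members' windows held 13 summits in place of 20. Then 3 members (nhr-25, nhr-85 and myrf-2) had a promoter summit in place of 5, and 1 summit in place of 2 had the PRDM1 core. The myrf-1 promoter summit, ranked 1521 among nuclear peaks, fell outside that cut. Within 2000 bp upstream 12 summits were left, and with a promoter window of 500 bp 3 members (nhr-25, myrf-1 and myrf-2) had one. Taking the 3060 strongest peaks of 1 replicate alone, 6 members had a summit in either case, with 22 to 24 summits in all, 4 to 5 of them in introns, and 4 to 5 members with a promoter summit; nhr-23 had none without replicate 3. The core was then at 1 to 3 summits. Of the 20 summits 15 had a member's start as the nearest. No paired analysis was possible because there is 1 group. The lists give no read counts, so no statement rests on depth.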
